A study of Homo sapiens with 18 samples.

Results

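The glucocorticoid receptor and 7 genes tied to its action were followed in 3 human B-cell precursor leukemia lines treated with siRNA against the transcription factor SOX11. The 8 genes were taken by symbol from 26941 genes in the count tables, and comprise the receptor (NR3C1), its chaperone HSP90AA1, the co-chaperones FKBP4 and FKBP5, the chromatin remodeller SMARCA4, and the glucocorticoid-induced genes TSC22D3, PER1 and ZBTB16 (FKBP5 is also one of these). The lines are REH, which carries the ETV6-RUNX1 fusion, 697 and RCH-ACV. Each is a single established cell line, nucleofected with 300 nM of either SOX11 siRNA (named KO in the sample titles) or non-specific control siRNA, grown in medium with fetal bovine serum and collected after 48 h. No glucocorticoid is named among the treatments of these samples. There were 3 replicates of each of the 6 groups, 18 samples in all, described by the study as independent biological replicates. Poly(A) RNA was sequenced, and each sample held between 7039594 and 16592492 counts.

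The glucocorticoid receptor is a hormone-activated transcription factor. Without hormone it is held in the cytoplasm by HSP90 with immunophilin co-chaperones. On binding hormone it enters the nucleus and activates genes from DNA elements made of a pair of inverted repeats. Among the genes it induces is FKBP5, whose protein lowers the affinity of the receptor for hormone and so closes a feedback loop. Prednisone and dexamethasone act through this receptor and are core drugs in acute lymphoblastic leukemia, where they drive lymphoid blasts into apoptosis.

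Levels are CPM, the count of a gene's reads scaled to a common library size, for the transcript record with the most counts, scaled over the 18 samples, and are given as mean ± SD. A gene was called when its adjusted p in edgeR's quasi-likelihood test, corrected over every gene tested, was below 0.05. SOX11 itself was lower with SOX11 siRNA in all 3 lines, by a log2 fold change of -0.67 in RCH-ACV (adjusted p = 2.46e-06), -0.83 for REH (adjusted p = 1.45e-08) and -0.91 for 697 (adjusted p = 0.000221), so the transcript was reduced and not lost. B-cell precursor markers were present in every line, with 9 of 10 in REH and 10 of 10 in 697 and RCH-ACV at 1 CPM or more. The 6 T-cell markers in the tables summed to at most 0.580 CPM in any sample and the 5 erythroid markers to at most 0.464 CPM, while the 7 myeloid markers summed to between 2.35 and 31.1 CPM. With SOX11 siRNA, 3 of 9 B-cell precursor markers tested were called in REH (2 higher, 1 lower), 3 of 10 in 697 (all lower) and 3 of 10 in RCH-ACV (2 higher, 1 lower), beside 4.65%, 0.559% and 7.51% of all genes.

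None of the members was called for SOX11 siRNA. In REH 0 of the 7 members that could be tested were called, where 4.65% of 12787 genes were. In 697 it was 0 of 7 against 0.559% of 12169 genes, and in RCH-ACV 0 of 7 against 7.51% of 12963 genes. With backgrounds this low, 0 of 7 is near what all genes gave and is no result about these genes as a group. Of the 21 tests of a member in a line, 3 had an unadjusted p below 0.05, all of them in RCH-ACV (HSP90AA1, FKBP4 and PER1). At that cutoff RCH-ACV had 2911 of 12963 genes, REH 2155 of 12787 and 697 1003 of 12169. With so many genes under it in RCH-ACV, 3 of 7 is no result about these genes as a group. DESeq2 likewise called 0 members in each line. The effect common to the lines called 0 of 7 members against 8.14% of 14026 genes. The test of whether the siRNA effect differed between lines called 0 of 7 members against 0.734% of genes, with member adjusted p-values from 0.793 to 0.994.

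**Figure D1:**
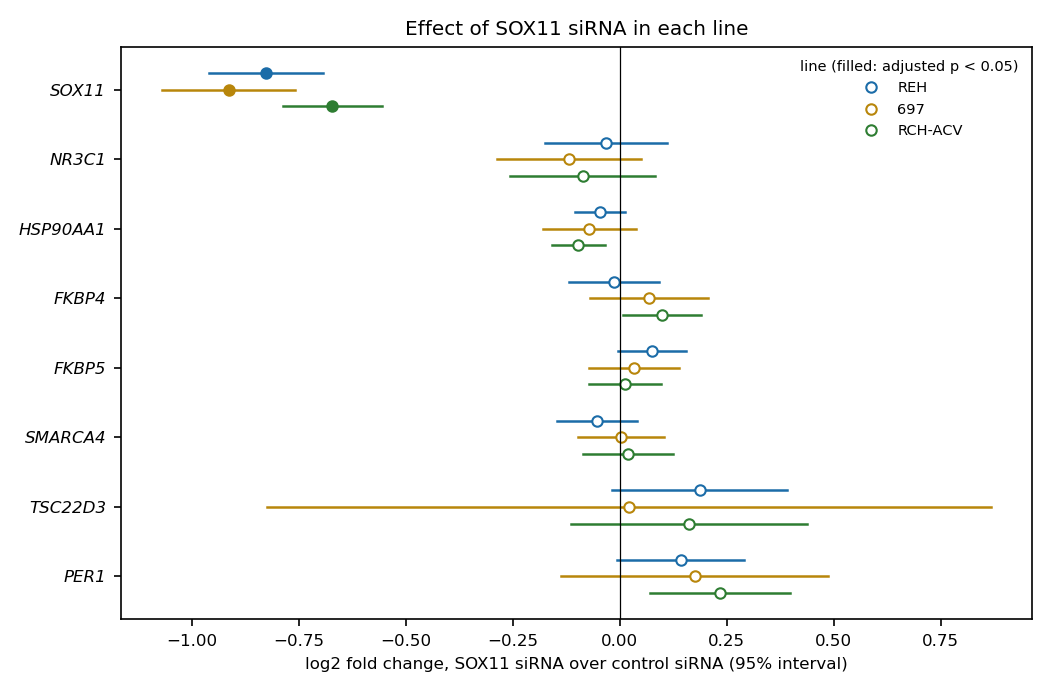
Log2 fold change of SOX11 siRNA over control siRNA (x axis) for SOX11 and the 7 members tested (y axis) in REH, 697 and RCH-ACV, 3 samples against 3; points are edgeR estimates, lines their 95% intervals, and filled points passed the adjusted p threshold. Only SOX11 is filled, and the member estimates lie between -0.12 and 0.23, with the widest interval for TSC22D3 in 697.

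In RCH-ACV the count of members called depended on 1 library. Without SOX11 siRNA replicate 3 of that line, 4 members were called by edgeR's quasi-likelihood test. These were NR3C1 (log2 fold change -0.22, adjusted p = 0.00122), HSP90AA1 (-0.09, adjusted p = 0.0269), FKBP4 (0.13, adjusted p = 0.0119) and PER1 (0.29, adjusted p = 0.00443). Leaving out this library also raised the number of genes called in RCH-ACV from 973 to 2479, whereas leaving out any other library of the line gave between 386 and 543 genes. Its SOX11 level was 86.8 CPM, beside 81.6 and 78.8 CPM in the other 2 SOX11 siRNA samples of the line. Without SOX11 siRNA replicate 2, the log2 fold change of NR3C1 was 0.00.

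NR3C1 (chromosome 5, 142657496 to 142815077, minus strand, GRCh37), which encodes the receptor, was counted in 15 transcript records, and NM_001024094 was kept. In the control samples its level was 35.8, 34.1 and 33.4 CPM in REH, 217, 193 and 167 CPM in 697, and 110, 110 and 113 CPM in RCH-ACV. With SOX11 siRNA it was 33.1, 32.4 and 35.0 CPM in REH, 176, 176 and 180 CPM in 697, and 97.2, 93.3 and 125 CPM in RCH-ACV. The lines did not overlap in either treatment, and the treatments overlapped in every line. The log2 fold change of SOX11 siRNA was -0.03 in REH (95% interval -0.18 to 0.11), -0.12 in 697 (-0.29 to 0.05) and -0.09 in RCH-ACV (-0.26 to 0.08).

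Between the control lines NR3C1 and TSC22D3 had the widest ranges of the members on the log2 scale. NR3C1 was 34.4 ± 1.25 CPM in REH, 192 ± 24.8 CPM in 697 and 111 ± 1.43 CPM in RCH-ACV (n = 3 each). The level in REH was 0.178 of that in 697 (log2 difference -2.49 ± 0.08 SE, adjusted p = 1.99e-15), a size larger than that of 86.5% of genes in this comparison. REH was at 0.308 of RCH-ACV (log2 difference -1.70, adjusted p = 1.12e-12), and 697 was 1.73-fold above RCH-ACV (log2 difference 0.79, adjusted p = 1.41e-08). All 3 lines thus differed from each other. REH is the only line of its subtype here, so line and subtype cannot be told apart in its contrasts.

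NM_001020825 is the RefSeq record of the receptor beta isoform, which has a different last exon and does not bind hormone. Its record shares most exons with the kept one, so its count is not an isoform level. It stood at 56.2% to 58.8% of the kept record in the 6 groups, a spread far below that of the gene itself. The genes whose log2 levels over the 18 samples followed NR3C1 most closely were EIF3H (Pearson r = 0.997), PARP1 (0.996) and LINC01108 (0.996), among 11190 genes that averaged 5 CPM or more. These correlations rest on the 3 lines as clusters. After each group's mean was removed they were 0.667, 0.650 and 0.540.

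**Figure D2:**
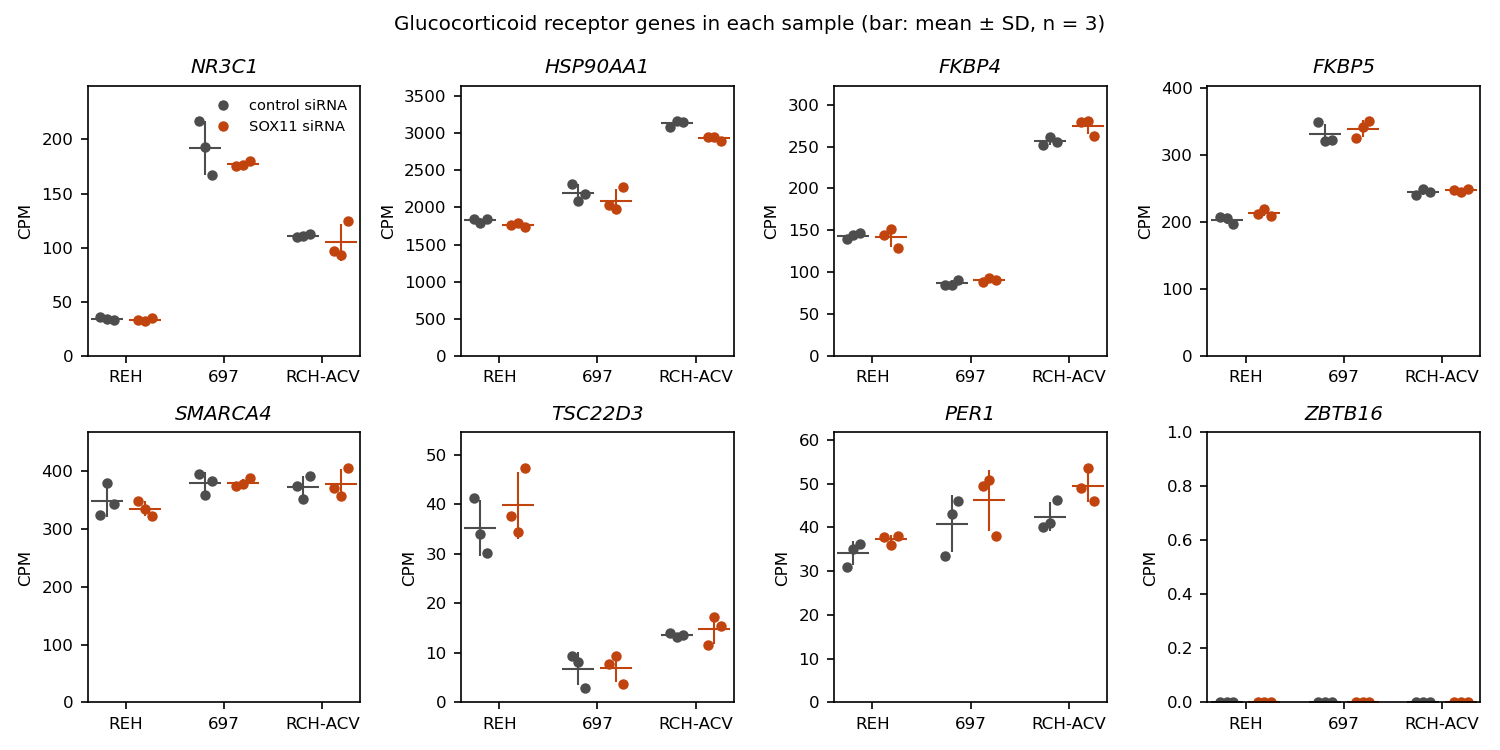
Level of each of the 8 genes in CPM (y axis, from 0) in the 3 control siRNA and 3 SOX11 siRNA samples of REH, 697 and RCH-ACV; points are samples, and bars give the mean ± SD. NR3C1 and FKBP5 are highest in 697 and lowest in REH, TSC22D3 shows the opposite order, and ZBTB16 is at 0 in all 18 samples.

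The chaperones that hold the receptor differed between lines in their own order. HSP90AA1 (chromosome 14, 102547079 to 102606036, minus strand), the inducible cytosolic HSP90, was the most abundant member per length of transcript, at 565.5 CPM per kilobase in REH, 680.2 in 697 and 970.8 in RCH-ACV controls. NR3C1 on the same scale was at 5.08, 28.4 and 16.4 CPM per kilobase. In plain CPM, control HSP90AA1 was 1845, 1785 and 1847 in REH, 2315, 2089 and 2183 for 697, and 3085, 3161 and 3155 in RCH-ACV. With SOX11 siRNA it was 1761, 1788 and 1734 CPM in REH, 2031, 1977 and 2270 for 697, and 2948, 2944 and 2899 in RCH-ACV. The order was RCH-ACV above 697 above REH, and all 3 contrasts of the control lines were called (log2 differences -0.28 for REH against 697, -0.79 for REH against RCH-ACV and -0.52 for 697 against RCH-ACV).

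The 3 RCH-ACV samples with SOX11 siRNA lay below their 3 controls for HSP90AA1, by a log2 fold change of -0.10 (95% interval -0.16 to -0.04, adjusted p = 0.0530). The estimates in REH and 697 were -0.05 and -0.07, and the effect common to the lines was -0.07 (adjusted p = 0.0593 by edgeR's quasi-likelihood test). When genes with low counts were kept in the test, the RCH-ACV value passed the threshold (adjusted p = 0.0323), as did the common effect (adjusted p = 0.0351). The estimates in these 2 fits were -0.09 and -0.07. HSP90AB1, another cytosolic HSP90 and one of the chaperones listed below, averaged 2522 CPM in RCH-ACV controls and 2695 CPM with SOX11 siRNA. In 697 its mean went from 2274 to 2419 CPM and in REH from 1716 to 1683 CPM. Like HSP90AA1, it was not called by edgeR in the main fit of any line. Its samples with SOX11 siRNA lay above their controls in RCH-ACV (2663 to 2727 against 2412 to 2579 CPM). The same held in 697 (2399 to 2453 against 2212 to 2321 CPM), and in REH they lay below (1664 to 1703 against 1707 to 1726 CPM). In 697 and RCH-ACV the means of the 2 genes moved in opposite directions, so the values of HSP90AA1 do not stand for HSP90 as a whole.

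FKBP4 (chromosome 12, 2904136 to 2914589, plus strand) encodes FKBP52, the co-chaperone that favours hormone binding and transport of the receptor into the nucleus. Its control level was 139, 144 and 147 CPM in REH, 84.5, 84.6 and 90.7 CPM in 697, and 252, 262 and 256 CPM in RCH-ACV. RCH-ACV was thus high and 697 low with no overlap, and 697 stood at 0.337 of RCH-ACV (log2 difference -1.57 ± 0.05 SE, adjusted p = 5.24e-15). REH was 1.64-fold above 697 (adjusted p = 2.14e-10) and at 0.554 of RCH-ACV (adjusted p = 6.16e-12). With SOX11 siRNA, FKBP4 was 145, 151 and 129 CPM in REH, 88.6, 93.5 and 90.6 CPM in 697, and 280, 280 and 263 CPM in RCH-ACV. The RCH-ACV samples did not overlap their controls, but the log2 fold change of 0.10 (95% interval 0.01 to 0.19) had an adjusted p of 0.183 in edgeR's quasi-likelihood test.

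FKBP5 (chromosome 6, 35541362 to 35696360, minus strand) encodes FKBP51, the co-chaperone that lowers hormone affinity, and is itself induced by the receptor. Its control level was 206, 206 and 196 CPM in REH, 348, 321 and 322 CPM in 697, and 240, 249 and 245 CPM in RCH-ACV. No line overlapped another, and the order was that of NR3C1, with 697 highest and REH lowest. The steps were smaller than those of the receptor. REH was at 0.609 of 697 (log2 difference -0.71, adjusted p = 4.19e-11) and at 0.821 of RCH-ACV (adjusted p = 1.47e-05), and 697 was 1.35-fold above RCH-ACV (adjusted p = 1.05e-07). The balance of the 2 immunophilins differed by line. Per kilobase, FKBP5 exceeded FKBP4 in REH (54.0 against 38.6 CPM) and in 697 (88.1 against 23.3 CPM) and was close to it in RCH-ACV (65.3 against 69.0 CPM).

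With SOX11 siRNA, FKBP5 was 212, 218 and 209 CPM in REH, 325, 342 and 350 CPM in 697, and 247, 245 and 249 CPM in RCH-ACV. The 3 REH samples lay just above their controls, with a log2 fold change of 0.07 (95% interval -0.0049 to 0.15, adjusted p = 0.341), and the other lines overlapped. These were the narrowest intervals of any target gene. In RCH-ACV the interval of the log2 fold change ran from -0.07 to 0.10.

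SMARCA4 (chromosome 19, 11071608 to 11190102, plus strand) encodes BRG1, an ATPase of the SWI/SNF complex that opens chromatin at receptor-bound sites. It was the most even member, with control means of 348 ± 28.2 CPM in REH, 379 ± 19.0 CPM in 697 and 372 ± 19.6 CPM in RCH-ACV. The samples of all 3 lines overlapped. REH against 697 passed the threshold at a log2 difference of -0.13 (adjusted p = 0.0443) but not in 5 of the 9 fits without 1 library, and with library size as the only scaling the difference was 0.00. REH against RCH-ACV (adjusted p = 0.0924) and 697 against RCH-ACV (adjusted p = 0.751) did not pass. SOX11 siRNA gave log2 fold changes of -0.05 for REH, 0.00 for 697 and 0.02 for RCH-ACV, and the 3 intervals together ran from -0.15 to 0.12.

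Among the receptor's target genes, FKBP5 and PER1 held a match to the glucocorticoid response element in the regions searched. The element searched was the repeats AGAACA and TGTTCT separated by 3 bases, which reads the same on both strands, in the 5000 bases on each side of the start of each gene's canonical transcript with at least 11 of the 12 letters matching, and over the whole transcript with all 12 matching. The 2 matches are shown because no other stretch in the windows searched around the 8 genes met these limits, with matching letters in capitals, read from the GRCh37 genome on the gene's strand.
PER1, chr17:8057778-8057792, minus strand: AGAACAtgaTGTTCc
FKBP5, chr6:35569859-35569873, minus strand: AGAACAgggTGTTCT
The PER1 match had 11 of 12 letters and lay 2063 bases upstream of the canonical start, outside that transcript but within the gene record. The FKBP5 match had all 12 and lay in an intron, 86826 bases downstream of the start. Of 19894 start-site windows of the same size, 3.86% held at least 11 letters and 0.136% all 12. The genome was also cut end to end, in and outside genes, into 23624 stretches as long as the FKBP5 region searched (120326 bases). Of these, 2.35% held all 12. The other 6 genes had no match in these windows. Receptor binding was not measured here.

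TSC22D3 (chromosome X, 106956451 to 107020572, minus strand) encodes GILZ, a leucine zipper protein that mediates anti-inflammatory actions of glucocorticoids. Its control level was 41.3, 33.9 and 30.2 CPM in REH, 9.34, 8.08 and 2.97 CPM in 697, and 14.0, 13.1 and 13.5 CPM in RCH-ACV. REH was high and 697 low without overlap, the opposite order to NR3C1 and FKBP5. REH was 5.12-fold above 697 (log2 difference 2.36 ± 0.20 SE, adjusted p = 4.24e-09) and 2.58-fold above RCH-ACV (adjusted p = 9.52e-07), and 697 was at 0.504 of RCH-ACV (adjusted p = 0.00143). The same differences in the SOX11 siRNA samples were 2.53, 1.40 and -1.13 on the log2 scale.

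**Figure D3:**
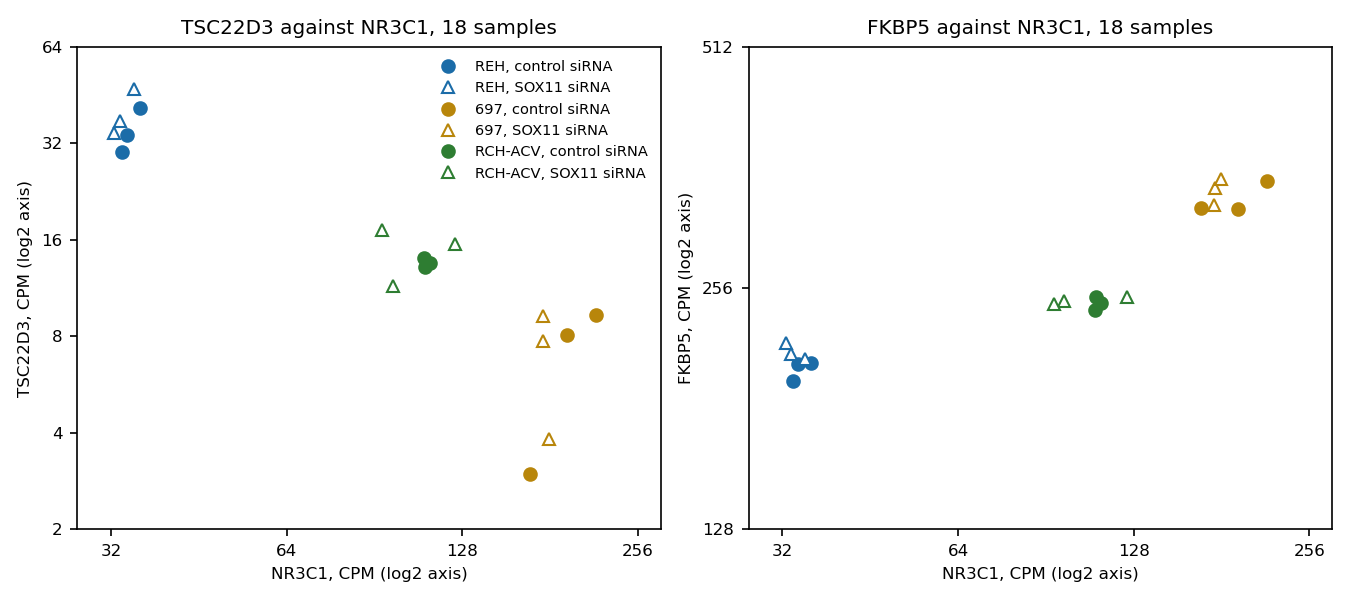
TSC22D3 (left, y axis) and FKBP5 (right, y axis) against NR3C1 (x axis) in CPM on log2 axes for the 18 samples; colours mark the lines, circles control siRNA and triangles SOX11 siRNA. The samples form a cluster for each line, with TSC22D3 falling and FKBP5 rising from REH through RCH-ACV to 697.

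Across the 18 samples the Pearson r of log2 levels with NR3C1 was -0.903 for TSC22D3 and 0.919 for FKBP5. Both describe the order of 3 lines and not a relation within them. With group means removed, r was 0.490 for TSC22D3 and 0.432 for FKBP5, values that rest on 3 samples in each group and were not tested. They give no steady direction for TSC22D3. In 697 the sample lowest in TSC22D3 had the lowest NR3C1 of the controls (167 CPM) but the highest with SOX11 siRNA (180 CPM).

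With SOX11 siRNA, TSC22D3 was 37.5, 34.4 and 47.4 CPM in REH, 7.76, 9.28 and 3.82 CPM in 697, and 11.5, 17.2 and 15.5 CPM in RCH-ACV. The treatments overlapped in each line. The log2 fold change was 0.19 in REH (95% interval -0.02 to 0.39), 0.02 in 697 (-0.83 to 0.87) and 0.16 in RCH-ACV (-0.11 to 0.44), and the interval in 697 spans folds from 0.564 to 1.82. Replicate 3 was the lowest of its group in both 697 groups. In the same 2 samples TXNIP, a thioredoxin inhibitor, and DDIT4, an inhibitor of mTORC1, were also the lowest of their groups, at 34.2 and 40.2 CPM for TXNIP and 45.4 and 38.5 CPM for DDIT4, where the other 697 samples were at 48.4 CPM or more for TXNIP and 59.4 CPM or more for DDIT4. TXNIP was singled out after its values were seen. Without replicate 3 of both groups, the log2 fold change of TSC22D3 in 697 was -0.02. Among 11190 genes, ASS1, an enzyme of arginine synthesis, followed TSC22D3 most closely over the 18 samples (r = 0.970, and 0.929 with group means removed).

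PER1 (chromosome 17, 8043790 to 8059824, minus strand), a repressor of the circadian clock, was at 31.0, 35.2 and 36.1 CPM in REH, 33.5, 43.2 and 46.0 CPM in 697, and 40.2, 40.9 and 46.2 CPM in RCH-ACV controls. REH was the lowest line but overlapped 697. It was at 0.830 of 697 (adjusted p = 0.0251, lost in 3 of the 9 fits without 1 library and with library size as the only scaling) and at 0.794 of RCH-ACV (adjusted p = 0.00672), and 697 against RCH-ACV was not called (log2 difference -0.06, 95% interval -0.28 to 0.15).

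With SOX11 siRNA, PER1 was 37.7, 36.1 and 38.1 CPM in REH, 49.5, 50.9 and 38.2 CPM in 697, and 49.0, 53.7 and 46.1 CPM in RCH-ACV. Its mean was higher than in the controls in each of the 3 lines, with overlapping samples. The log2 fold changes were 0.14 for REH (95% interval -0.01 to 0.29), 0.18 for 697 (-0.14 to 0.49) and 0.23 for RCH-ACV (0.07 to 0.40), with adjusted p-values of 0.329, 0.858 and 0.0755. The effect common to the lines was 0.18 (95% interval 0.06 to 0.31, adjusted p = 0.0534), which lay close to the threshold. It was called in 5 of the 18 fits without 1 library (adjusted p from 0.00944 to 0.05), and when genes with low counts were kept (adjusted p = 0.00504, and 0.0254 for RCH-ACV alone).

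ZBTB16 (chromosome 11, 113929763 to 114127487, plus strand), the zinc finger repressor PLZF and a target that depends strongly on hormone, had 0 counts in both of its transcript records in all 18 samples. At these depths a count of 0 allows a level of up to 0.181 to 0.426 CPM, taken as 3 counts of each sample's total, a limit that covers counting error only. It could not be tested in any comparison.

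The differences between the control lines were read against a broad background. REH and 697 differed for 7 of 7 members where 76.2% of 13686 genes were called, REH and RCH-ACV for 6 of 7 where 73.7% were, and 697 and RCH-ACV for 5 of 7 where 64.2% were. The shares for the members are thus near those of all genes. By size, NR3C1 and TSC22D3 exceeded at least 73.8% of genes in each of the 3 contrasts, while SMARCA4 exceeded at most 14.0%. In the 9 SOX11 siRNA samples the same orders held for NR3C1, FKBP5, HSP90AA1, FKBP4 and TSC22D3, with all 3 contrasts of each called.

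Other genes induced by glucocorticoids gave a mixed picture after SOX11 siRNA. The list held 32 genes, including the members FKBP5, TSC22D3, PER1 and ZBTB16. In REH 1 of 24 tested rose and 0 fell, in 697 0 of 25 rose and 1 fell, and in RCH-ACV 2 of 28 rose and 5 fell, where over all genes 337 rose and 257 fell in REH, 10 rose and 58 fell in 697, and 465 rose and 508 fell in RCH-ACV. The median log2 fold change of the list was -0.02 in REH, -0.09 in 697 and 0.01 in RCH-ACV, beside 0.00 for all genes in each line. The 7 of 28 called in RCH-ACV stand beside 7.51% of all genes, and the single calls in REH and 697 beside 4.65% and 0.559%. For the effect common to the lines 2 of 28 rose and 6 fell, beside 8.14% of all genes called, with a list median of -0.05. The list was chosen with results of these data known, so these counts are a description.

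**Figure D4:**
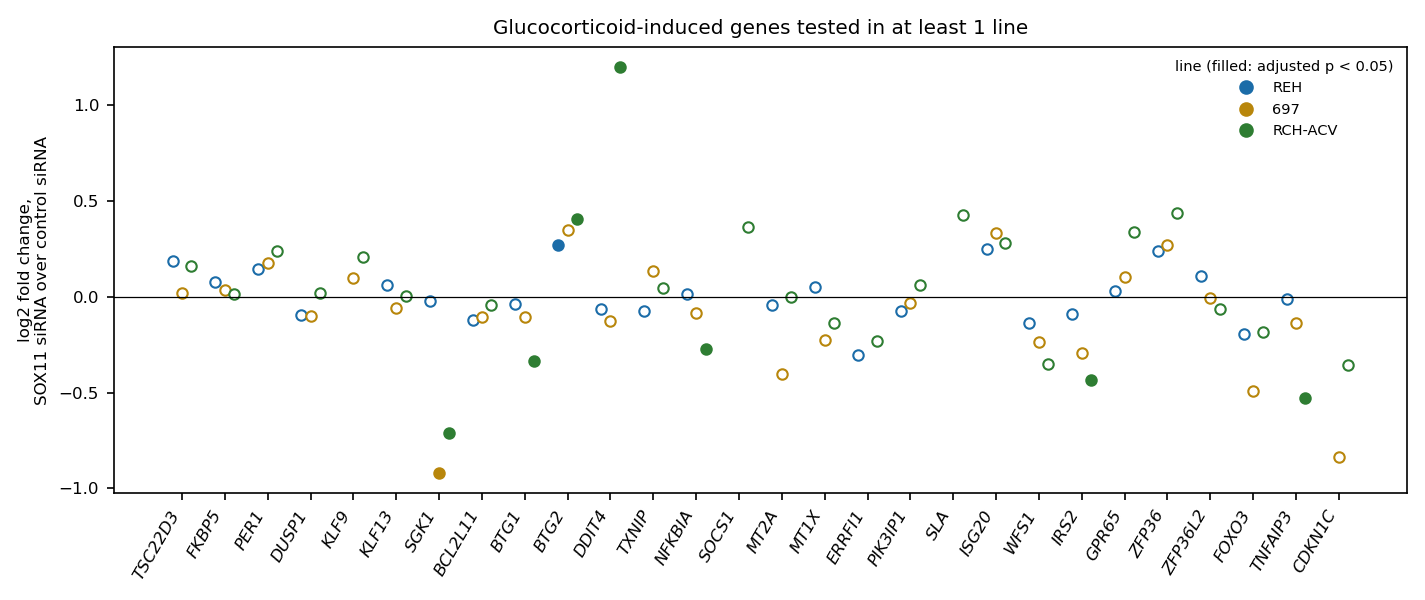
Log2 fold change of SOX11 siRNA over control siRNA (y axis) for the 28 listed glucocorticoid-induced genes tested in at least 1 line (x axis), coloured by line, 3 samples against 3; filled points passed the adjusted p threshold. SGK1 is filled below 0 in 697 and RCH-ACV, DDIT4 above 0 in RCH-ACV, and TSC22D3, FKBP5 and PER1 are open in every line.

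SGK1, a kinase that controls sodium channels and shares substrates with AKT, was 44.5, 43.7 and 41.5 CPM in RCH-ACV controls and 25.6, 27.3 and 25.7 CPM with SOX11 siRNA, a log2 fold change of -0.71 ± 0.07 SE (adjusted p = 2.33e-05). In 697 it went from 9.95, 9.25 and 8.65 CPM to 4.45, 4.76 and 5.50 CPM (log2 fold change -0.92, adjusted p = 0.0326), without overlap. This call in 697 was lost with DESeq2, in each fit without 1 library and in the fit without replicate 3 of both groups. In REH the controls were at 4.94, 4.93 and 5.18 CPM, and the log2 fold change was -0.03 (adjusted p = 0.967).

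DDIT4 rose in RCH-ACV from 26.0, 21.2 and 20.8 CPM to 42.6, 59.8 and 50.8 CPM, a log2 fold change of 1.19 ± 0.12 SE (adjusted p = 1.23e-05 in edgeR's quasi-likelihood test). The estimates for DDIT4 in REH and 697 were -0.07 and -0.13. TNFAIP3, the NF-kappaB inhibitor A20, fell in RCH-ACV from 103, 100 and 106 CPM to 62.0, 68.8 and 83.7 CPM (log2 fold change -0.53, adjusted p = 0.000541). BTG2, an antiproliferative gene, rose in REH from 50.7, 45.0 and 42.3 CPM to 53.2, 58.1 and 55.2 CPM (log2 fold change 0.27, adjusted p = 0.0176), but was not called in REH with DESeq2 or in 3 of the 6 fits without 1 library. In RCH-ACV, BTG2 also rose (log2 fold change 0.41, adjusted p = 0.00460). The RCH-ACV calls of SGK1, DDIT4, TNFAIP3 and BTG2 held in all 14 alternatives, the fit without SOX11 siRNA replicate 3 included.

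**Figure D5:**
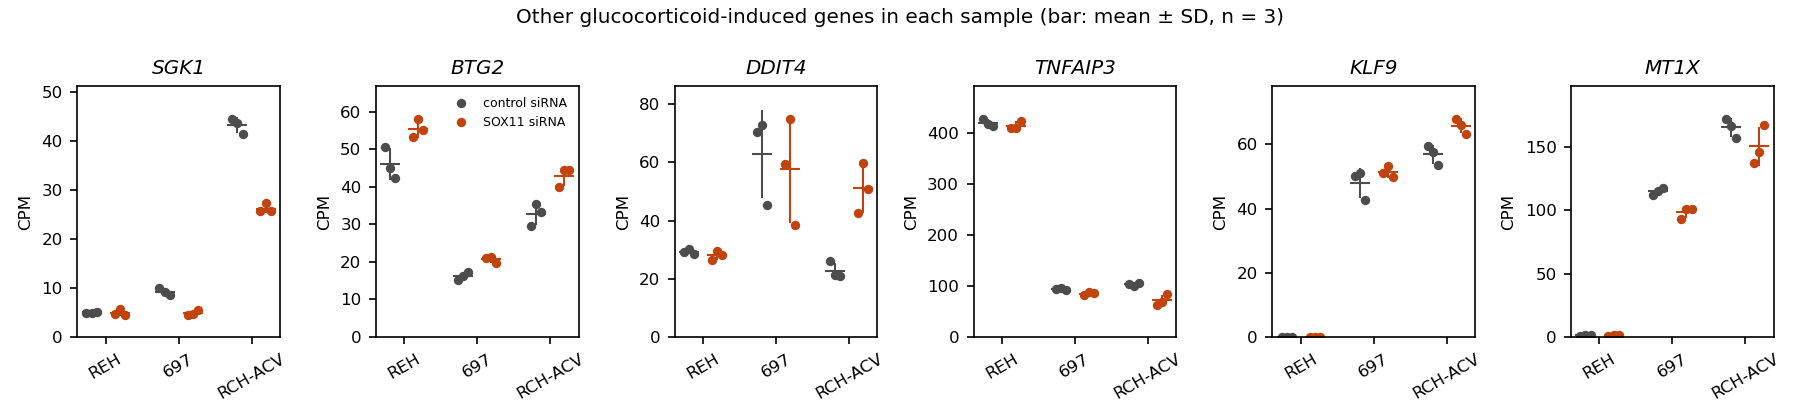
Level in CPM (y axis, from 0) of SGK1, BTG2, DDIT4, TNFAIP3, KLF9 and MT1X in the 3 control siRNA and 3 SOX11 siRNA samples of each line; points are samples, and bars give the mean ± SD. SGK1 separates by siRNA in 697 and RCH-ACV, DDIT4 in RCH-ACV, and KLF9 and MT1X are close to 0 in REH in both treatments.

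The control samples of the lines differed widely in the level of these genes. KLF9, a transcription factor that is a direct target of the receptor, was at most 0.156 CPM in REH controls, under the limit set by 3 counts, and between 42.7 and 59.4 CPM in the controls of 697 and RCH-ACV. MT1X, a metallothionein, was between 0.475 and 1.68 CPM in REH, 112 and 117 CPM in 697, and 158 and 172 CPM in RCH-ACV. ERRFI1, an inhibitor of the EGF receptor, was instead highest in REH, with 9.32 to 10.6 CPM in REH, 4.31 to 5.33 CPM in RCH-ACV and 0.294 to 0.676 CPM in 697. KLF9 and MT1X were, like NR3C1, lowest in REH, and ERRFI1 ordered the lines as TSC22D3 did. These 3 were named for their range and do not stand for the list. Across the list 24, 24 and 21 of 28 genes were called in the contrasts REH against 697, REH against RCH-ACV and 697 against RCH-ACV, against the 76.2%, 73.7% and 64.2% of all genes given above. Of those called, 14 were higher and 10 lower in REH than in 697, and 12 were higher and 12 lower in REH than in RCH-ACV. In 697, 6 were higher and 15 lower than in RCH-ACV.

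Of 19 HSP90 and HSP70 chaperones and co-chaperones, HSP90AA1, FKBP4 and FKBP5 included, edgeR called 0 with SOX11 siRNA in REH, beside 4.65% of all genes. In 697 it called 0 of 18 tested, beside 0.559%, and DESeq2 also called 0 in both lines. At an unadjusted p below 0.05 there were 1 and 2, where all genes gave 2155 of 12787 and 1003 of 12169. In RCH-ACV 1 of 19 was called, beside 7.51% of all genes. This was DNAJA1, an HSP40 partner of HSP70, which fell (log2 fold change -0.14, adjusted p = 0.0467, lost in 8 of 14 alternatives). DESeq2 called 0 of the list in RCH-ACV. At an unadjusted p below 0.05 in edgeR there were 6 of 19 in that line, where all genes gave 2911 of 12963. The median log2 fold change of this list was -0.02, 0.04 and 0.03 in REH, 697 and RCH-ACV. Between the control lines HSPA1A, HSPA1B and BAG1 had the largest ranges of the listed genes, members left aside, that were called in all 3 contrasts. HSPA1A, a stress-induced HSP70, had no counts in the 697 controls and 4.47 to 9.46 CPM in the other controls, but shares reads with the near-identical HSPA1B and is uncertain. BAG1, a nucleotide exchange factor that inhibits the receptor, was 83.1 to 102 CPM in 697, 62.3 to 71.8 CPM in RCH-ACV and 51.7 to 52.9 CPM in REH.

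Of 20 receptor coregulators, 2 rose in REH, beside 4.65% of all genes called, and 0 were called in 697, beside 0.559%, by edgeR or DESeq2. In 697, 1 had an unadjusted p below 0.05, where 1003 of 12169 genes did. MED14, the Mediator subunit that binds the receptor's N-terminal domain, rose in REH from 56.8, 61.6 and 57.9 CPM to 72.9, 75.4 and 73.4 CPM (log2 fold change 0.33, adjusted p = 0.000414) and held in all 14 alternatives. NRIP1, a corepressor, rose by 0.12 in REH (adjusted p = 0.0251, lost in 7 of 14). In the same comparison the myeloid marker MPO, the only one of the 7 that could be tested, fell by 0.78 on the log2 scale, and the summed myeloid level in REH ranged from 8.83 to 15.7 CPM with ELANE, FCN1 and CD33 at 0. Its part in these results was not tested. In RCH-ACV TBL1XR1, a subunit of a corepressor complex, fell by 0.16 on the log2 scale (adjusted p = 0.0207, lost in 4 of 14). NCOR1, a corepressor, was at 47.6 to 53.5 CPM in RCH-ACV controls and 245 to 337 CPM in the other controls. CREBBP, an acetyltransferase coactivator, was 278 to 317 CPM in REH controls and 118 to 166 CPM in the others.

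Of 20 SWI/SNF subunits, SMARCA4 included, 0 were called in REH and in 697 by edgeR or DESeq2, beside 4.65% and 0.559% of all genes. At an unadjusted p below 0.05 there were 2 and 1, where all genes gave 2155 of 12787 and 1003 of 12169. In RCH-ACV 1 of 20 was called, beside 7.51% of all genes. This was PBRM1, a bromodomain subunit, which fell by 0.17 on the log2 scale (adjusted p = 0.0363, lost in 7 of 14 alternatives). DESeq2 called 0 of these subunits in RCH-ACV. At an unadjusted p below 0.05 in edgeR there were 5 of 20 in that line, where all genes gave 2911 of 12963. Among the control lines, SMARCC1, a core subunit, was 275 to 288 CPM in REH and 510.5 to 643 CPM in the others. SMARCD3 was 1.17 to 2.33 CPM in REH and 3.90 to 10.4 CPM in the others, and BCL7C was highest in REH at 20.9 to 22.1 CPM. These 3 were named for their range, and other subunits such as SMARCC2 (222, 228 and 218 CPM on average in REH, 697 and RCH-ACV controls) were as even as SMARCA4.

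Of 8 genes for steroid access, metabolism and the caspase-1 cleavage of the receptor, NR3C1 included, 4 were tested in REH and RCH-ACV and 3 in 697. With SOX11 siRNA 0 were called by edgeR or DESeq2, beside 4.65%, 0.559% and 7.51% of all genes by edgeR in REH, 697 and RCH-ACV. At an unadjusted p below 0.05 REH had 2, 697 had 1 and RCH-ACV had 1. Over all genes these were 2155 of 12787, 1003 of 12169 and 2911 of 12963. NR3C2, the mineralocorticoid receptor, which binds the same hormones, was 3.62 to 7.70 CPM in REH controls, 0.911 to 1.75 CPM in RCH-ACV and 0.135 to 0.369 CPM in 697, which is 3 counts or fewer in each sample. This was the reverse of the NR3C1 order. CASP1, the protease that cleaves the receptor, was 10.9 to 12.3 CPM in REH, 13.2 to 14.9 CPM in 697 and 1.82 to 2.86 CPM in RCH-ACV. NLRP3, which activates CASP1, was 1.81 to 2.5 CPM in REH, 7.57 to 9.25 CPM in 697 and 25.0 to 28.7 CPM in RCH-ACV.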

How the data were processed

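RNA from 18 samples of 3 cell lines (3 control siRNA and 3 SOX11 siRNA each) was sequenced from stranded poly(A) libraries. Per the labels, the authors deposited raw read counts for each RefSeq transcript, 1 table per line. The submitters' processing notes name STAR 2.5.3a, FastQC 0.10.1, bcl2fastq and HOMER and the build hg19, and the strand setting of the counting is not given in the sources used here. Values in the tables were whole counts that sum to a different total in each sample. RefSeq records of 1 gene share reads, so records were not summed. Each gene is represented by the record that summed to most counts across the 18 samples (50678 records, 98% matched to a symbol, 26941 genes).

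From these counts, edgeR 4.0.16 in R 4.3.3 was run with its filterByExpr filter by group, TMM scaling and the quasi-likelihood test, with Benjamini-Hochberg adjustment over all genes tested. SOX11 siRNA was compared with control siRNA in the 6 samples of each line. The effect common to the lines and the line by siRNA interaction were fitted over the 18 samples, and the lines were compared in 1 fit over the 9 control samples. Intervals are 95% intervals from the test statistic. The replicates are separate cultures of single lines, so p-values cover the spread between cultures. CPM per kilobase divides by the length of the canonical GENCODE transcript and is approximate. Correlations use log2 CPM with a prior count of 2. The members and gene lists were chosen with earlier results of these data known. From each list and line, up to 3 genes called with the smallest adjusted p were named, plus up to 3 called in all contrasts of the control lines with the largest range. HSP90AB1, MPO, TXNIP, SMARCC2 and the further value of BTG2 were exceptions named after their values were seen. Alternatives were other scalings, DESeq2 1.42.0, other filters, a replicate block, 1 fit over all samples, another choice of record and leaving out each library. The steps were tested on simulated data. Gene positions and response elements were read from GRCh37 and its GENCODE annotation, the same assembly as hg19 for these chromosomes. Protein sequences were not used here, and some items, 1 list gene among them, are not reported here.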

Additional observations from a re-analysis of the deposited data

Results flagged for a closer look

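No member of the receptor group was called in edgeR's interaction test of the siRNA effect between lines over the 18 samples. Of the 28 listed glucocorticoid-induced genes tested, 3 were called, beside 0.734% of all genes. The list was chosen with results of these data known, so this count is a description. The log2 fold change of SGK1 was -0.025 in REH, -0.92 in 697 and -0.71 in RCH-ACV (interaction adjusted p = 0.0429). Its call in the fit of 697 was lost with DESeq2 and in each fit without 1 library. The log2 fold change of DDIT4 was -0.067 in REH, -0.13 in 697 and 1.19 in RCH-ACV (interaction adjusted p = 0.00757). The log2 fold change of TNFAIP3 was -0.011 in REH, -0.14 in 697 and -0.53 in RCH-ACV (interaction adjusted p = 0.00692). In RCH-ACV all 3 SOX11 siRNA samples lay outside the range of the controls for each of these genes. The genes were picked by a test on the same samples, so this separation adds no support.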

How the results depend on the processing

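The members called between control lines stayed within 1.5 times of 7, 6 and 5 under every alternative, and the members called in REH, in 697 and in the interaction stayed at 0. With low-count genes kept, 2 members were called in RCH-ACV and 2 for the common effect (HSP90AA1 and PER1 each time), and with library size alone 1 for the common effect. Without 1 library these ranged from 0 to 4 and from 0 to 2. For all genes, REH gave 594 calls, 313 with DESeq2, 228 in 1 fit over the 18 samples and 296 to 522 without 1 library. 697 gave 68, with 119 unfiltered, 189 in 1 fit over the 18 samples, 29 without replicate 3 of both groups (an alternative chosen after seeing the data) and 25 to 70 without 1 library. RCH-ACV gave 973, with 582 by DESeq2 and 386 to 2479 without 1 library.

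Reversals of sign occurred in small estimates that were not called, except for REH against 697. Library size alone, which moves the median of all genes from 0.02 to 0.15 in that contrast, turned SMARCA4 to 0.00498, and to -0.039 for 697 against RCH-ACV. Without replicate 3 of both 697 groups, TSC22D3 was at -0.019. Without 1 library the log2 values ranged from -0.061 to 0.056 for FKBP4 and -0.11 to 0.014 for SMARCA4 in REH, from -0.33 to 0.34 for TSC22D3 and -0.031 to 0.030 for SMARCA4 in 697, from -0.22 to 0.0033 for NR3C1 and -0.036 to 0.060 for SMARCA4 in RCH-ACV, and from -0.029 to 0.011 for SMARCA4 in the common effect. For 697 against RCH-ACV they ranged from -0.018 to 0.062 for SMARCA4 and from -0.16 to 0.070 for PER1. The cause was not tested.

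The main tests did not pair samples by replicate number. Deviations of same-numbered samples correlated between -0.244 and 0.264, which cannot tell whether these samples were handled together. With the replicate block 29 genes were called in 697 and no member in any line, and SGK1 in 697 was lost (adjusted p = 0.161 in edgeR). Depth limits genes near 3 counts.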
